A study of Drosophila melanogaster with 12 samples.

Results

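The Bithorax complex was taken as 1 interval of 330 kb on chromosome 3R, chr3R:12480001-12810000 in the dm3 build, on both homologs. It is 1 of 74 windows of 330 kb tiled over the arm from 3.24 Mb to the end, and 1 of 290 such windows over the 4 large autosomal arms. It holds 3 Hox genes in the order Ubx, abd-A and Abd-B along the arm. No dm3 gene annotation was used here, so the interval was cut into 3 equal segments of 110 kb, and the proximal, middle and distal segments are called the Ubx, abd-A and Abd-B segments by gene order only. In the RefSeq list of Release 6 genes the complex lies between modSP on the proximal side and VhaM9.7-d on the distal side, and the noncoding genes lncRNA:bxd and lncRNA:iab8 are listed before and after abd-A.

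Ubx, abd-A and Abd-B are homeodomain transcription factors that give the segments of the posterior thorax and the abdomen of the fly their identity. Each is controlled by long regulatory regions separated by insulators, and the complex is a classical target of Polycomb repression. It is also where transvection, the action of a regulatory element of one homolog on the gene of the other, was first described. Somatic homolog pairing, the side by side alignment of maternal and paternal chromosomes outside meiosis, is widespread in flies.

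Haplotype-resolved Hi-C counts ligated pairs of DNA fragments whose parental origin is known from single nucleotide variants on both sides. A pair within the maternal (DGRP-057) homolog is cis-maternal, a pair within the paternal (DGRP-439) homolog is cis-paternal, and a pair that joins the 2 homologs is thom (trans-homolog). The cells were PnM cells, 1 clonal line of male diploid cells started from embryos of a cross between the lines DGRP-057 and DGRP-439, described by the study as expressing Mef2 and so likely of mesodermal origin. There were 4 conditions with 2 replicates each: untreated cells, mock cells that received water, cells given 30 ug of Slmb dsRNA, and cells given 30 ug of TopII dsRNA, harvested on day 4. All cells were fixed in 1% formaldehyde for 10 min. Slmb is a subunit of an SCF ubiquitin ligase and TopII is topoisomerase II. Both knockdowns were compared with the same mock libraries. Contact data cannot check the knockdowns or the cell type, and no expression values were used here. The methods of the study speak of 2 biological replicates per dsRNA treatment. Neither they nor the labels say whether the untreated replicates came from separate cultures. The limma p-values measure a spread between these libraries that is shared over windows and may be technical in part. At 330 kb they rested on 540 degrees of freedom in Slmb and 542 in TopII against mock. The windows of 1 library are not independent replicates.

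The untreated libraries held 37284329 and 38465767 pairs, and the 6 other libraries held 10190412 to 12077016 pairs. A fraction of the cells carries 2 maternal copies of 3R from 3.24 Mb on, and in those cells no thom pair can arise there. The 74 windows of 3R used for ranks lie in this segment, whereas most of the windows over which limma p-values were adjusted do not. In the complex, read sides assigned to the maternal homolog outnumbered paternal ones 1.53 times in pooled untreated cells, 1.66 times in mock, 1.73 times in Slmb and 1.65 times in TopII. The medians of the 74 windows were 1.51, 1.62, 1.68 and 1.61. The part of this maternal excess in the thom share of each condition was not tested.

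The homologs of the Bithorax complex were in contact in every library, and about as often as those of other windows of the arm. Untreated replicate 1 held 16402 cis-maternal, 7929 cis-paternal and 13580 thom pairs with both sides in the interval and at least 1 kb apart. Untreated replicate 2 held 17078, 8026 and 13891. The thom share of all these pairs was 35.8% in untreated replicate 1 and 35.6% in replicate 2, with a mean of 35.7% ± 0.140 (SD, n = 2). It was 32.95% and 33.4% in the mock libraries, 30.9% in each Slmb library, and 29.5% and 33.5% in the TopII libraries. The exact binomial 95% interval of 1 library, which covers counting error only, ran from 35.3% to 36.3% in untreated replicate 1 and from 28.7% to 30.4% in TopII replicate 1. The mock libraries lay below both untreated libraries and the Slmb libraries lay below both mock libraries. The arm had the same order, with a median of the 74 windows of 35.1% in pooled untreated, 33.2% in mock and 30.2% in Slmb cells. The TopII libraries differed from each other by more than any other pair of replicates and spanned the mock values.

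Ranked from the highest share, the complex was window 23 and window 28 of 74 in the untreated libraries, 40 and 36 in mock, 26 in each Slmb library, and 35 and 14 in TopII. The median share of the 74 windows was 35.1% in each untreated library and the windows ranged from 28.0% to 40.5% in untreated replicate 1. In TopII replicate 1 the median was 29.5% and in replicate 2 it was 32.4%, so the difference between these replicates was seen over the arm and not in the complex alone. The windows next to it were alike, with 36.3% in the proximal neighbour and 34.9% in the distal neighbour in pooled untreated cells.

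**Figure D1:**
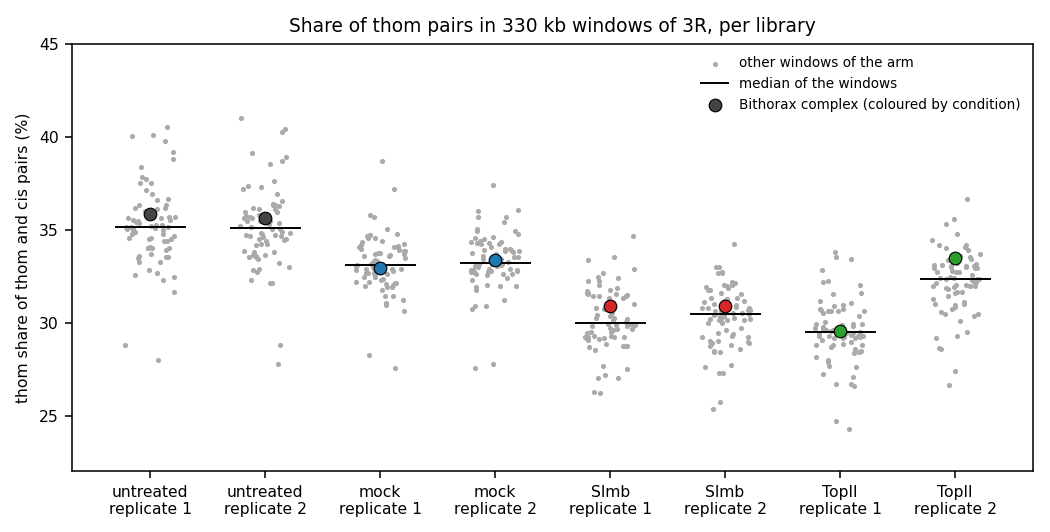
Each point is 1 of 74 windows of 330 kb of 3R, with its thom share in percent on the vertical axis and the 8 libraries side by side. The large coloured point is the Bithorax complex and the bar is the median of the windows. The complex sits inside the cloud in every library, between 29.5% and 35.8%.

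The rank of the complex among windows changed with the separation of the pairs compared. In every library the thom share of the complex rose with the distance between the 2 sides of a pair up to 100 kb, and beyond it rose further in some libraries and fell in others. In pooled untreated cells it was 28.4% at 1 to 3.16 kb, 30.2% at 3.16 to 10 kb, 34.7% at 10 to 31.6 kb, 37.6% at 31.6 to 100 kb and 38.3% at 100 to 330 kb. The medians of the windows at the same separations were 29.2%, 31.7%, 34.6%, 37.4% and 38.9%. The complex was thus below the median at short and at the longest separations and slightly above it from 10 to 100 kb, with ranks of 54, 54, 35, 33 and 57 of 74, although all pairs together gave rank 25. At 100 to 330 kb it ranked 63 in pooled mock, 63 in Slmb and 59 in TopII cells.

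**Figure D2:**
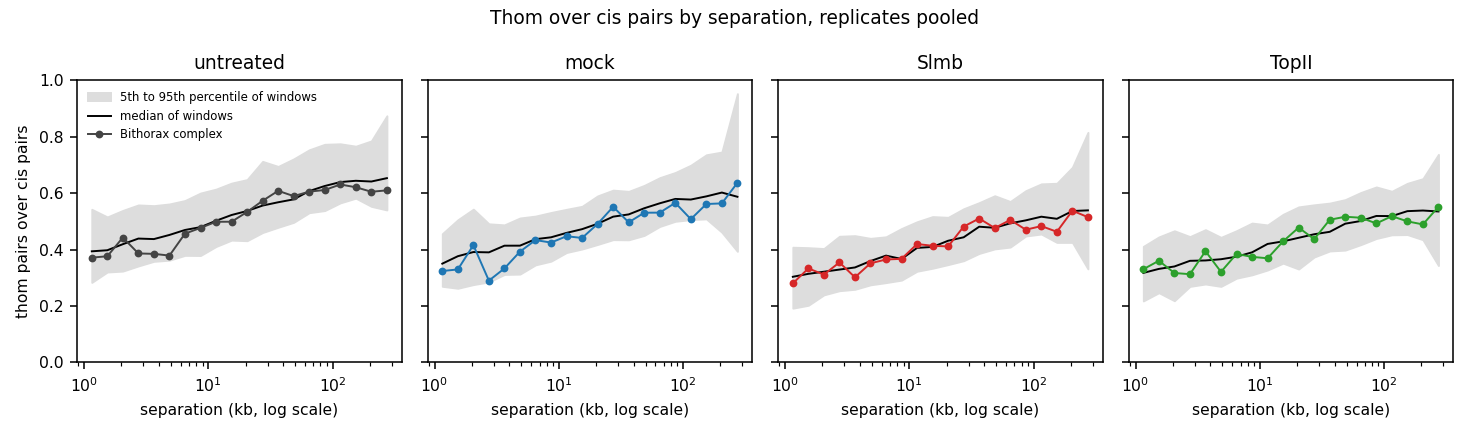
Thom pairs divided by cis pairs (vertical axis) against the separation of the 2 sides in kb on a log axis, replicates pooled, 1 panel per condition. Coloured points are the Bithorax complex, the black line is the median of the 74 windows and the grey band their 5th to 95th percentile, with ranges of under 100 pairs in the complex left out. The complex follows the median of the arm and stays inside or at the rim of the band.

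Contact of the Ubx segment with the other segments, on each homolog and between homologs, ranked high among the windows of the arm. Contact was measured as observed over expected, the balanced contact of a map divided by the mean of the same map at the same separation over 3R after 3.24 Mb. Over the whole interval it was 1.26 in the cis-maternal, 1.23 in the cis-paternal and 1.29 in the thom map of pooled untreated cells, ranks 2, 1 and 3 of 74 windows. The median window was at 1.00 in cis-maternal, 1.01 in cis-paternal and 1.00 in thom. The same value in thom was 1.26 in mock, 1.33 in Slmb and 1.27 in TopII cells, ranks 4, 2 and 3.

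Between the Ubx and the Abd-B segment, whose inner ends are 110 kb and outer ends 330 kb apart, observed over expected contact was more than 2 times that of the arm in untreated cells. It was 2.38 and 2.32 in the cis-maternal maps of the untreated replicates, 2.15 and 2.18 in the cis-paternal maps and 2.33 and 2.20 in the thom maps. The pooled maps gave rank 3 of 74 windows in each of the 3 map types. The thom value was 2.85 and 2.41 in mock, 2.15 and 1.94 in Slmb, and 2.15 and 1.99 in TopII libraries. The thom values were highest in the mock libraries and lowest in the knockdown libraries. How many of the 74 windows order the libraries in this way was not counted. Each comparison of conditions here is 2 values against 2, for which an exact permutation test can give no p below 0.33. The counts behind the thom values were 887 and 951 pairs in the untreated libraries, 325 and 333 in mock, 255 and 199 in Slmb, and 274 and 318 in TopII.

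Between the Ubx and abd-A segments, contact in the thom map was 1.74 and 1.67 in untreated libraries, 1.54 and 1.46 in mock, 1.70 in each Slmb library, and 1.59 and 1.4998 in TopII. In pooled untreated cells the cis-maternal map was at 1.66, the cis-paternal at 1.71 and the thom map at 1.71, ranks 4, 2 and 2. Here the mock values were below the untreated ones, the opposite of the contact between Ubx and Abd-B, so the order of conditions differed between segment pairs. Between the abd-A and Abd-B segments the values were lower, 1.44, 1.45 and 1.41 in the pooled untreated maps, with ranks of 20, 15 and 13.

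**Figure D3:**
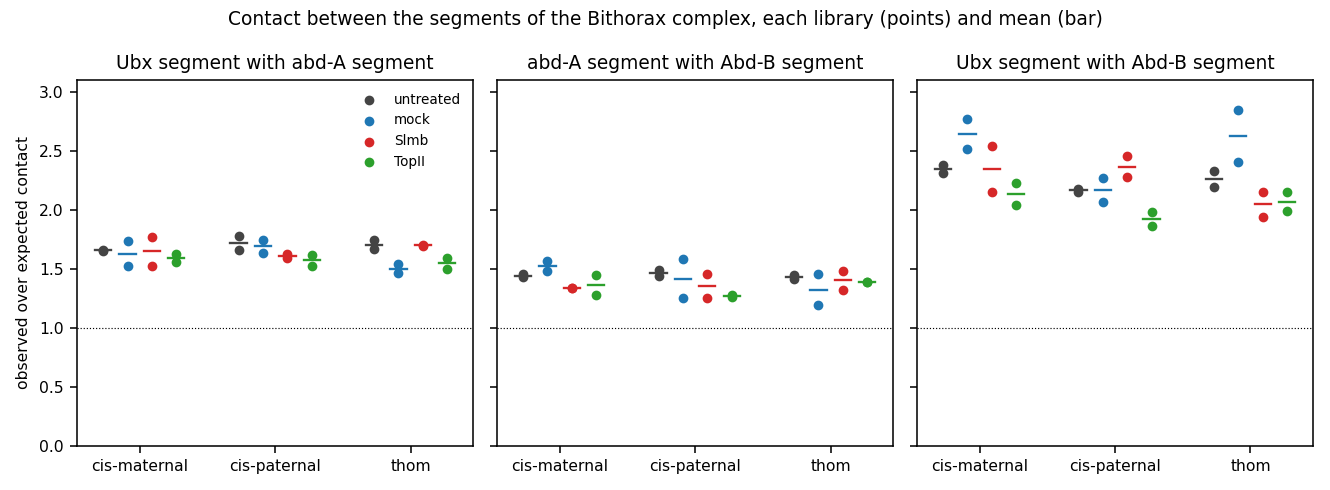
Observed over expected contact (vertical axis, linear from 0, dotted line at the arm mean of 1) between segments of the complex, 1 panel per pair of segments, in cis-maternal, cis-paternal and thom maps. Points are libraries, bars the mean of 2 replicates and colours the conditions. Contact between the Ubx and Abd-B segments lies between 1.87 and 2.85 in all 8 libraries.

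The 2 homologs and the thom map held alike patterns at 10 kb. Over 496 pixels of the complex in pooled untreated cells, Spearman's coefficient was 0.61 for the maternal homolog against the paternal one. The thom map reached 0.67 against the maternal homolog and 0.59 against the paternal one. In the shallower mock maps the same coefficients were 0.24, 0.42 and 0.26. Pixels share their bins and libraries, so these values describe the maps only. As a further description, chosen after the maps were seen, the strongest square of 30 kb in the thom map joined 30 to 60 kb with 280 to 310 kb from the proximal edge in untreated cells, at 3.15 times the expected contact. In mock cells it joined 0 to 30 kb with 290 to 320 kb, at 4.47 times. Both lie between the Ubx and Abd-B segments, at a distal end that held few pairs, as given with the pairing scores.

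**Figure D4:**
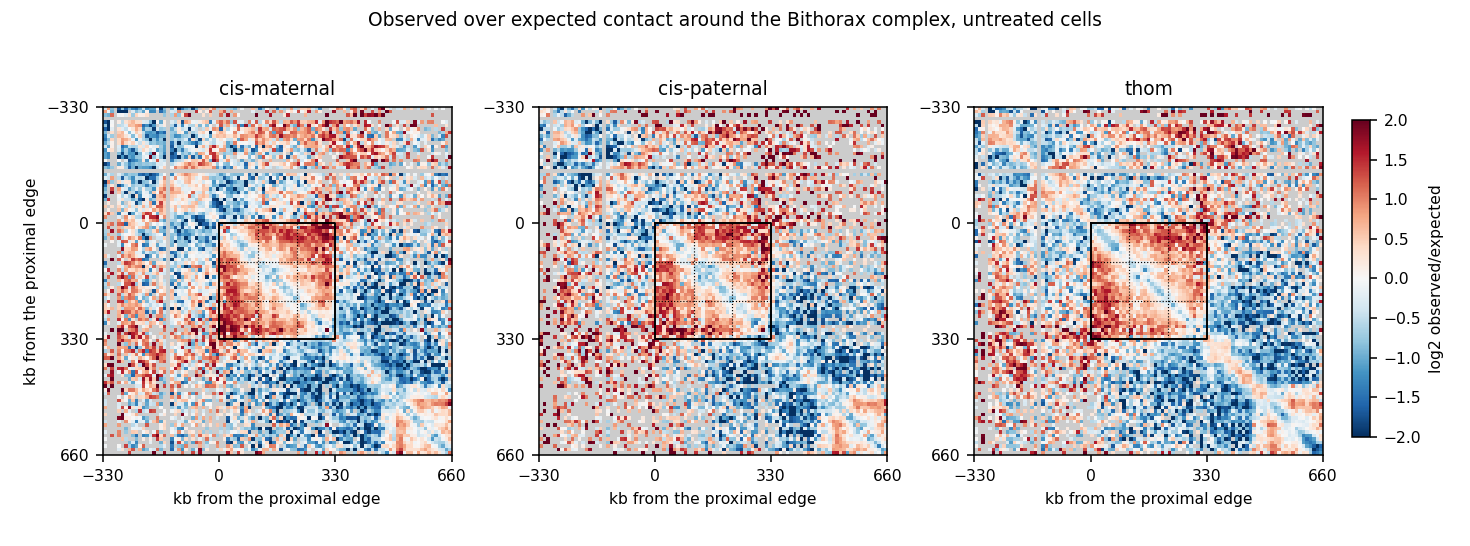
Observed over expected contact of untreated cells (colour, log2) in cis-maternal, cis-paternal and thom maps of 10 kb bins. Both axes give kb from the proximal edge, the square marks the complex, dotted lines its 3 segments, and grey marks pixels with no pair or a masked bin. The 3 maps show the same enriched square, 1.23 to 1.29 times the expected contact as a whole, and depleted contact with the distal flank.

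Contact across both edges of the complex, with 100 kb to each side, was below that of the arm. Between the 100 kb inside and the 100 kb outside of the proximal edge, observed over expected contact in pooled untreated cells was 0.62 in cis-maternal, 0.63 in cis-paternal and 0.68 in thom. At the distal edge it was 0.58, 0.54 and 0.66. Of 2447 positions every 10 kb along the arm, 15.99%, 15.05% and 16.1% had lower values than the proximal edge and 11.3%, 6.21% and 13.6% lower values than the distal edge. With 50 kb to each side, 3.52% and 4.37% of positions were lower than the edges in cis-paternal and 6.50% and 19.7% in thom, and in raw counts 13.1% and 28.3% in thom. In pooled untreated cells the edges were thus below the median position in each of these settings, and how far below it depended on the setting. In TopII replicate 1 the distal edge in thom with 50 kb to each side was at 1.01, above the median position of 0.98. With 100 kb to each side the thom value at the proximal edge was 0.68 and 0.69 in the untreated libraries, 0.65 and 0.63 in mock, 0.66 and 0.55 in Slmb, and 0.68 and 0.74 in TopII. At the distal edge it was 0.65 and 0.68 in untreated, 0.62 in each mock library, 0.70 and 0.51 in Slmb, and 0.70 and 0.57 in TopII. Inside the complex the same measure reached its highest value 100 kb from the proximal edge, at 1.68 in thom in untreated cells, so contact across that point was above the arm.

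The flanks differed. In pooled untreated cells the thom contact of the whole complex with the next 110 kb was 1.06 on the proximal side and 0.80 on the distal side. With the 110 kb beyond, 110 to 220 kb from the edge, it was 0.86 on the proximal and 0.56 on the distal side. At 220 to 330 kb it was 1.299 on the proximal and 0.70 on the distal side. The cis-maternal values at 220 to 330 kb were 1.38 and 0.70, and the cis-paternal values 1.47 and 0.71. The proximal side was thus the one with more contact in all 3 maps, and the same order held in mock, Slmb and TopII cells at each distance.

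Insulation boundaries, minima of the contact across a 4 kb bin, were called in the map of both cis types together and in the thom map. In untreated cells 5 cis and 4 thom boundaries fell inside the complex or within 20 kb of its edges, and 3 of each had a partner of the other type within 8 kb. The cis boundary at chr3R:12480001-12484000 matched the proximal edge and had a thom boundary at chr3R:12476001-12480000. The cis boundary at chr3R:12796001-12800000, near the distal edge, had a thom boundary at chr3R:12792001-12796000. The matched boundary inside the complex was at chr3R:12624001-12628000 in cis and chr3R:12620001-12624000 in thom, in the abd-A segment, with prominences of 0.78 and 1.00. A boundary between 140 and 144 kb from the proximal edge was called in cis and in thom in each of the 4 conditions. The cis boundaries at 92 and 212 kb had no thom partner in untreated cells. In the shallower conditions, 7 cis and 6 thom boundaries were called in mock, 4 and 10 in Slmb, and 5 and 6 in TopII. Single libraries of these conditions gave 9 to 13 thom boundaries against 7 and 6 in the untreated libraries. These libraries were also shallower, so depth and treatment cannot be told apart in the number of boundaries.

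The pairing score (PS) is the log2 of the mean thom contact within 12 kb of a 4 kb bin, and the cis score (CS) is the same for cis contact. Each score has the genome-wide median CS subtracted, so PS minus CS gives the thom contact near a bin relative to its cis contact. In pooled untreated cells the median PS of the 82 bins of the complex was -0.97, the median CS -0.07 and the median PS minus CS -0.89. The median window of the arm had a PS of -0.75 and a PS minus CS of -0.90. The complex ranked 57 of 74 by PS and 37 by PS minus CS. With raw pair counts in place of balanced contact its PS was above the median window, at -0.56 against -1.03 and rank 18, while PS minus CS was at rank 44. PS minus CS was -0.89 and -0.92 in the untreated libraries, -0.97 and -1.02 in mock, -1.05 and -1.20 in Slmb, and -1.48 and -1.13 in TopII. In pooled cells the complex was at -1.01 in mock, -1.14 in Slmb and -1.29 in TopII, and the medians of the arm were -1.01, -1.24 and -1.22, so TopII was lowest in the complex and Slmb in the arm. Against them the complex ranked 36, 25 and 52. The order of conditions turned when the pixels of the main diagonals were kept, with -3.31 in untreated, the lowest, -3.06 in mock, -3.19 in Slmb and -3.11 in TopII cells.

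A threshold between loose and tight pairing was set where the 2 Gaussian components of the genome-wide PS cross, at -0.999 in pooled untreated cells. In the complex 34 of 82 bins, 41.5%, were below it, against 31.0% of the bins of the arm. In the single untreated libraries the share was 28.05% and 40.2%, against 31.9% and 28.6% of the arm, each with the threshold of its own library. With the pooled threshold, a window of 5 bins gave 17.1% against 23.9% of the arm and raw pair counts 25.6% against 50.4%, so whether the complex held more loose bins than the arm turned with the setting. It was 37.8% in mock, 31.7% in Slmb and 57.3% in TopII, against 32.5%, 33.1% and 35.0% of the arm. The median PS of the complex thus lay close to the threshold in each condition, and its share of loose bins differed between the untreated replicates.

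By segment, the median PS in untreated cells was -1.12 over the Ubx, -1.02 over the abd-A and -0.88 over the Abd-B segment. The highest PS of the complex in untreated cells, 0.07, was in the bin chr3R:12780001-12784000 in the Abd-B segment, and the lowest, -1.43, in the bin chr3R:12764001-12768000 of the same segment, 16 kb away. The first of these bins held 27 thom and 46 cis pairs in pooled untreated cells, against a median of 334 thom and 651 cis pairs over the 82 bins, and ranked 3 from the lowest in thom pairs. It was at -0.12 and 0.03 in the untreated libraries, -1.43 and -1.54 in mock, -1.78 and 0.77 in Slmb, and -1.76 and -0.82 in TopII. The Slmb replicates thus lay farther apart in this bin than the untreated and mock libraries did. The bin of the lowest PS held 599 thom pairs, but its PS was -1.10 and -1.52 in the untreated libraries and -0.68 and -1.94 in mock. Over the 82 bins the PS of the replicates had a Spearman coefficient of 0.67 in untreated, 0.39 in mock, 0.08 in Slmb and 0.18 in TopII cells. Single bins of the shallower libraries are therefore not described further.

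**Figure D5:**
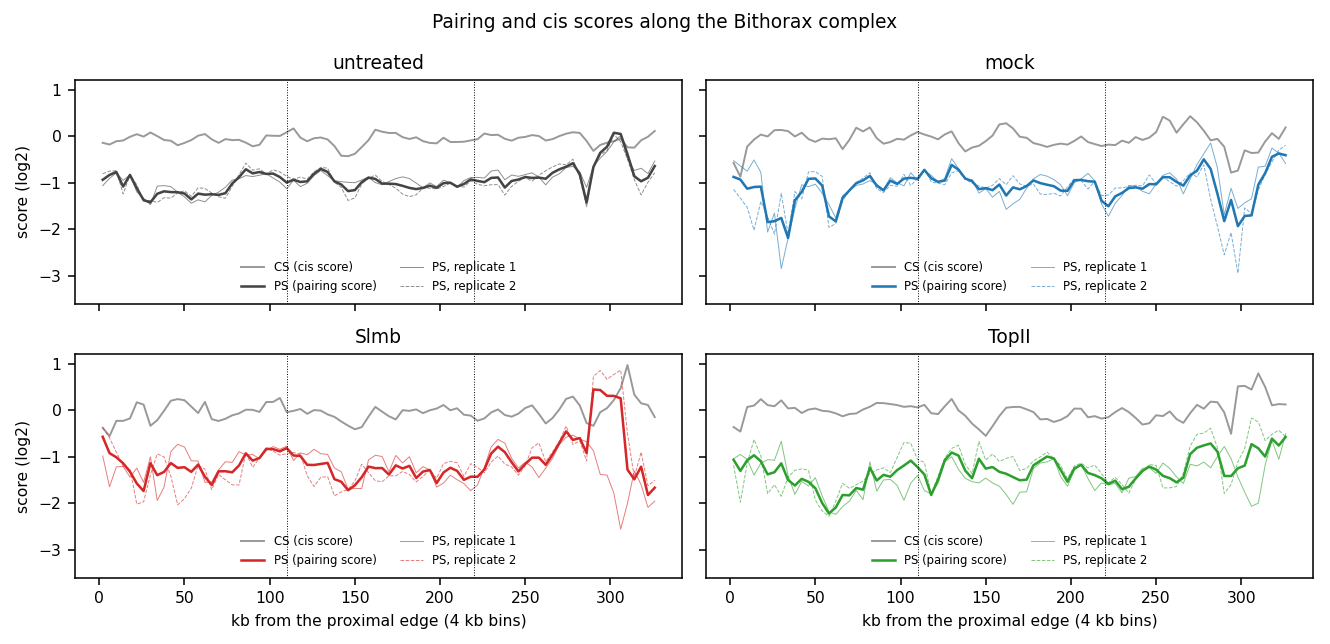
PS (thick coloured line, pooled), CS (grey) and the PS of each replicate (thin lines) on a log2 scale in 4 kb bins against the distance in kb from the proximal edge, 1 panel per condition, with dotted lines between segments. PS stays below CS over the Ubx and abd-A segments in all conditions, and the Slmb and TopII replicates part at about 300 kb, where PS was -1.78 and 0.77 in the Slmb libraries.

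Over pairs with both sides in 1 segment, the Ubx segment had the lowest thom share of the 3 segments in 8 of 8 libraries. In pooled untreated cells it was 32.9% (exact binomial 95% interval 32.1% to 33.8%), against 34.6% (33.9% to 35.3%) in the abd-A and 34.8% (34.0% to 35.7%) in the Abd-B segment. It ranged from 26.3% to 32.9% over the 8 libraries in the Ubx, from 28.0% to 34.7% in the abd-A and from 28.2% to 35.3% in the Abd-B segment. At equal separation the order held in 8 of 8 libraries for pairs 1 to 10 kb apart, in 7 of 8 for 10 to 30 kb and in 4 of 8 for 30 to 110 kb. In pooled untreated cells the shares at 1 to 10 kb were 27.9%, 30.2% and 30.2%. The segments of 1 library share its depth and its maternal excess, so the order is given as a count of libraries with no test.

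Over the whole complex no preference was detected for which homolog held the side of a thom pair nearer the centromere. The maternal homolog held it in 50.5% (49.6% to 51.3%) of the thom pairs of untreated replicate 1 and 50.03% (49.2% to 50.9%) of replicate 2. Over the 8 libraries the share ran from 48.5% to 50.8%, and the exact binomial interval held 50% in each. For pairs between the Ubx and Abd-B segments it was 50.6% (47.3% to 54.0%) and 48.3% (45.05% to 51.5%) in the untreated libraries. Most intervals within and between segments held 50%. Exceptions were 51.3% (50.1% to 52.5%) within abd-A in pooled untreated cells and 45.1% (40.9% to 49.3%) between abd-A and Abd-B in Slmb replicate 2. These intervals were not adjusted for their number. Of all thom pairs in the complex, 2.40% were less than 1 kb apart in pooled untreated cells and were left out of the values above. An excess of inward facing pairs, which an unligated fragment with a wrong assignment would give, made up 35.8% of these short pairs in the complex and 25.3% in the median window.

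Mock libraries were compared with untreated libraries. These groups also differed in depth and in the ratio of maternal to paternal read sides in the complex, 1.66 in mock against 1.53 in untreated. An effect of transfection cannot be told apart from these differences. The log2 of thom over cis pairs in the complex was -0.84 and -0.85 in the untreated and -1.02 and -0.998 in the mock libraries. It fell by 0.16 (SE 0.026, limma adjusted p = 0.00457 over 275 windows). In this comparison 26.9% of all windows of the 4 arms were called lower and the median change of the 3R windows was -0.11. Relative to the median window of 3R in the same library the change was -0.04 (SE 0.024, 95% interval -0.09 to 0.02, limma adjusted p = 0.207). The same 3R median was subtracted from the windows of all 4 arms. The 58.5% of all windows called in either direction, and the adjustment, thus include the offset of the other arms from 3R. The median relative change was 0.08 over all windows and 0.01 over those of 3R. By segment the change was -0.23 (limma adjusted p = 0.0293) in the Ubx, -0.10 (0.231) in the abd-A and -0.14 (0.147) in the Abd-B segment, against 8.81% of all 110 kb windows called. With weights by pair counts the Ubx segment was again the one called, against 18.5% of windows. The exact permutation test of the 4 values gave p = 0.333, the smallest it can give. With all 8 libraries in 1 fit, which includes the spread of the TopII libraries, the fall of the complex was not called (limma adjusted p = 0.262). That fit called 10 of 275 windows lower.

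Slmb knockdown was compared with mock to ask whether pairing of the complex depends on Slmb. The log2 ratio was -1.16 in each Slmb library, below both mock libraries. It fell by 0.15 (SE 0.041, limma adjusted p = 0.000578 over 270 windows), which is a ratio of thom to cis of 0.447 in each Slmb library against 0.491 and 0.501 in mock. Here 85.6% of all windows were called lower, and the median change of the 3R windows was -0.19. From the largest fall, the complex was window 56 of 73. The exact permutation test of the log2 ratios of the complex gave p = 0.333, the smallest it can give. Relative to the arm the change was 0.04 (SE 0.041, 95% interval -0.04 to 0.13, limma adjusted p = 0.402), against 24.1% of all windows called. This share includes the offset of the other arms from 3R, with a median of 0.06 over all windows and 0.003 over those of 3R. The arm fell as well, and no difference of the complex from the arm was detectable with these libraries. By segment the change was -0.06 (limma adjusted p = 0.566) in the Ubx, -0.25 (0.0578) in the abd-A and -0.13 (0.212) in the Abd-B segment, against 10.4% of all 110 kb windows called. With weights by pair counts, added after the data were seen, the abd-A segment was called (-0.25, limma adjusted p = 0.00499) and the other segments were not, against 27.1% of all 110 kb windows called. The call of the whole complex was lost with all 8 libraries in 1 fit (limma adjusted p = 0.0582), where 182 of 270 windows were called. It was also lost with pairs of mapping quality of at least 30 only (limma adjusted p = 0.134), where 13 of 161 windows tested were called. That setting kept 20.6% of the mock pairs of the complex.

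TopII knockdown was compared with mock in the same way. The log2 ratio was -1.25 in TopII replicate 1 and -0.99 in replicate 2, and the mock libraries lay between them. The change of -0.11 did not pass the test (SE 0.112, 95% interval -0.33 to 0.11, limma adjusted p = 0.345 over 271 windows), against 42.4% of all windows called lower. Without TopII replicate 2 the change of the complex was -0.24, beside a median of -0.26 over the 3R windows. Without TopII replicate 1 it was 0.02, beside a median of -0.06. In these fits the TopII group was 1 library, so only effect sizes are given. The result for the complex thus rested on which TopII library was used, as did the median of the arm. Relative to the arm the change was 0.04 (SE 0.040, 95% interval -0.04 to 0.12, limma adjusted p = 0.998), against 1.48% of windows called. None of the 3 segments passed the test, with changes of -0.11, -0.11 and -0.16 and 5.59% of all 110 kb windows called, nor did any with weights by pair counts, against 13.4%.

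At 10 kb, no bin of the complex changed in any comparison by limma at an adjusted p of 0.05, and no bin of the 4 arms did (0% called). At an unadjusted p under 0.05 there were 1 of 33 bins in Slmb against mock, 1 in TopII against mock and 4 in mock against untreated. On simulated data this fit recovered 0% of changes of 1 on the log2 scale in 10 kb bins, so the count of 0 carries no information on changes of that size. With weights by pair counts, added after the data were seen, it recovered 72.2% in Slmb against mock, 79.0% in TopII against mock and 83.0% in mock against untreated. The simulated noise was drawn for each bin and library apart, with no shift of a whole library. The TopII libraries had arm medians of the log2 ratio of -1.26 and -1.06, so recovery in the real libraries may be lower. The weighted fit also called 0 of 33 bins in each comparison, with 3, 1 and 7 at an unadjusted p under 0.05, against 0.0464%, 0.0577% and 0.385% of all bins called. The median change of the 33 bins was -0.11 in Slmb against mock, -0.11 in TopII against mock and -0.21 in mock against untreated, beside -0.14, -0.15 and -0.04 over all bins tested. In mock against untreated 32 of 33 bins were below 0, as were 59.9% of all bins of the 4 arms, and the median over the bins of 3R was -0.12. Pairs reach up to 50 kb and count in both of their bins, so the 33 bins are not separate observations.

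Among 70 windows of 3R over 1 Mb away, the strongest thom contact in the pooled map of each condition was with chr3R:2580001-2910000. This window is taken to hold genes of the Antennapedia complex, another Hox cluster, with no annotation used. Expected contact here was the mean over the whole of 3R. The window was at 2.53 and 2.24 times the expected contact in the untreated libraries and 2.28 and 2.60 in mock. It was at 1.21 and 1.66 in Slmb, and 1.86 and 2.37 in TopII. It ranked 5 in Slmb replicate 1 and 1 in each other library. This window lies before 3.24 Mb, outside the partly disomic segment, so its pairs with the complex span the start of that segment. In disomic cells any chromosome that is paternal before this point and maternal after it would have its own contacts counted as thom. The part of this in the thom values was not tested. In pooled untreated cells the window had 447 cis-maternal, 266 cis-paternal and 714 thom pairs, at 1.80, 1.70 and 2.38 times the expected contact. The Slmb thom values were the lowest, on 48 and 59 thom pairs against 82 and 93 in mock. How many of the 70 windows order the libraries in this way was not counted. The next 2 windows in untreated cells, chr3R:3900001-4230000 and chr3R:17100001-17430000, were at 1.31 and 1.24, beside a median window at 0.79. Of the 714 thom pairs with the first window in pooled untreated cells, 205 had their side in the Ubx, 294 in the abd-A and 215 in the Abd-B segment.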

How the data were processed

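The authors aligned 150 bp read pairs to a hybrid dm3 genome holding both parental homologs with bwa mem (0.7.15-r1140 per the file headers), parsed, sorted and deduplicated them with pairsamtools (0.0.1-dev) and deposited 1 list of unique pairs per library. Each line of the deposited lists holds 2 positions and homologs (other values, in base pairs) and 2 mapping quality scores, and no test or fold change. Of 12 samples, 8 Hi-C libraries were used and 4 RNA-seq samples were not used here.

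Pairs were counted in 330 kb windows tiled from the interval at a separation of at least 1 kb. Maps of 4 and 10 kb were balanced by iterative correction. Boundaries needed a prominence of 0.3 in a 5-bin diamond, and PS used 3 bins to each side without the main and next diagonal. Changes were tested with limma 3.58.1 in R 4.3.3 (eBayes with trend) on log2((thom + 0.5)/(cis + 0.5)) in windows with at least 500 thom pairs on average, 110 kb windows with at least 100, or with a pseudocount of 1 in 10 kb bins with at least 10 and the other side within 50 kb, in the libraries of the 2 groups compared, Benjamini-Hochberg adjusted over the 4 arms. Fits were tested on simulated data, where the 330 kb fits without weights recovered 100% of changes of 0.5 on the log2 scale in each comparison. The simulated data held no shift of a whole library, so recovery in the real libraries may be lower. Ranks among windows are descriptions. Python 3.11.15 with numpy, pandas, scipy and matplotlib was used for the rest.

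The members, segments and tests were chosen with earlier results of these data known. Named features were fixed by rule as the interval, its segments and edges, the bins of highest and lowest PS, boundaries inside and within 20 kb, the 3 distant windows of highest thom value and up to 3 called 10 kb bins per direction. Alternatives were the minimum separation, strand, mapping quality, replicates, replicate block, all libraries in 1 fit, window and bin size, pseudocount, low-count filter, weights, balancing and PS window. Promoter and protein sequences were not used here.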

Additional observations from a re-analysis of the deposited data

How the results depend on the processing

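With a minimum separation of 5 kb the thom share of the complex was 36.4% in untreated, 33.9% in mock and 31.6% in Slmb cells. Same-strand pairs gave 35.9% in untreated and 30.8% in Slmb cells, and a mapping quality of at least 30 gave 31.7% in mock and 30.1% in Slmb. In Slmb 33.2% of sliding windows had a higher share, and 34.2% of windows without either Slmb replicate.

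The change in Slmb against mock was -0.15 with all 8 libraries in 1 fit (not called), -0.11 at a mapping quality of at least 30, and -0.058, -0.25 and -0.13 in the 110 kb Ubx, abd-A and Abd-B segments. In TopII against mock it was 0.026 at that mapping quality and ran from -0.24 to 0.020 when 1 TopII replicate was left out. In mock against untreated it was -0.16 with all 8 libraries (not called), and -0.10 and -0.14 in the abd-A and Abd-B segments. The cause of these losses of a call was not tested. At a mapping quality of at least 30 the changes relative to the arm were 0.08 in Slmb against mock, 0.17 in TopII against mock and -0.12 in mock against untreated. None was called (limma adjusted p = 0.385, 0.164 and 0.137). The TopII value was the highest of the 32 windows of 3R tested, so the distance from the arm depended on this setting.

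Of all windows, limma called 231, 115 and 85 in Slmb against mock, TopII against mock and mock against untreated. Same-strand pairs gave 151, 47 and 48 of 256, 261 and 272 windows tested. A mapping quality of at least 30 gave 13, 10 and 12 of 161, 173 and 227 windows tested. With all 8 libraries in 1 fit it called 199 in TopII and 12 in mock. Fits without 1 replicate left a group of 1 library, so only their effect sizes are given. In TopII against mock the median change of the 3R windows was -0.26 without TopII replicate 2 and -0.06 without TopII replicate 1.

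Same-numbered replicates did not deviate together (r of -0.16, 0.03 and 0.03 over windows), so they share only a number. With a replicate block the changes of the complex stayed at -0.15, -0.11 and -0.16 with the same calls, and 211, 107 and 103 windows were called. A crossed block, added after the data were seen, gave 229 windows in Slmb.

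PS minus CS with all pixels was -3.31 in untreated, -3.06 in mock, -3.19 in Slmb and -3.11 in TopII cells. Raw pair counts gave -0.99, -1.16 and -1.31 in the first 3, and a window of 5 bins -0.84 in untreated and -0.94 in mock. Single replicates ran from -0.92 to -0.89 in untreated and from -1.02 to -0.97 in mock cells.

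Contact across the proximal edge in cis-maternal, cis-paternal and thom maps was 0.565, 0.531 and 0.639 with 50 kb to each side and 0.387, 0.360 and 0.402 in raw counts, and 0.660 in thom with 10 kb bins. The distal edge in thom was 0.774, 0.609 and 0.618 under these settings, and in cis-paternal ran from 0.519 to 0.624 in single replicates.

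Raw counts gave 2.78, 2.36 and 2.52 between the Ubx and Abd-B segments, 2.45, 2.30 and 2.42 between Ubx and abd-A, and 2.23, 2.12 and 2.22 between abd-A and Abd-B. Bins of 10 kb gave 2.09 in cis-paternal, 1.63 in cis-maternal and 1.46 in thom for these pairs in turn. Single replicates ran from 2.15 to 2.18 in cis-paternal and 2.20 to 2.33 in thom between Ubx and Abd-B, from 1.66 to 1.66 in cis-maternal between Ubx and abd-A, and from 1.44 to 1.49 in cis-paternal and 1.41 to 1.45 in thom between abd-A and Abd-B. Depth limits the 4 kb scores, since the shallower libraries held a median of 72.5 to 84.5 thom pairs per bin in pooled cells.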
